A study of Homo sapiens with 12 samples.

Results

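Fibroblast growth factors (FGFs) and their receptors were followed in SNU449 cells, a mesenchymal-like human hepatocellular carcinoma line, and in their derivative SNU449-Axl-, in which the receptor tyrosine kinase Axl had been knocked out by CRISPR/Cas9 editing. The genes were chosen by name, as the receptors FGFR1, FGFR2, FGFR3 and FGFR4, the receptor-like FGFRL1 and the ligands FGF1, FGF2 and FGF5. Of these 8 genes, 7 had a value among the 15601 genes of the table over all libraries, and the same 7 were listed in each of the 6 tables of a pair of groups. FGFR2 had no row in the tables and was not analysed here. Both lines were sequenced as control cells and as Rego-resistant cells. The latter had been adapted to rising concentrations of the multikinase inhibitor regorafenib (Rego) up to 2 times the IC50. Whether the drug was present at harvest is not given in the sources used here. Acquired resistance and exposure to the drug can thus not be told apart. Each of the 4 groups had 3 libraries that were technical replicates from 1 cell population. The errors and p-values therefore cover the spread between libraries and not between independently derived populations. A difference between groups can thus not be told apart from a difference between those populations, and the knockout was studied as the 1 derivative that the labels name.

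FGFs are secreted proteins that bind receptor tyrosine kinases together with heparan sulfate chains on the cell surface. Ligand binding pairs the receptors, and the adaptor FRS2 then couples them to the Ras-MAPK and PI3K pathways. FGF1 and FGF2 lack a classical signal peptide and leave the cell by a route outside the secretory pathway. In the liver, FGFR4 together with the co-receptor β-Klotho receives the gut hormone FGF19 and restrains bile acid synthesis. FGFRL1 binds ligands but has no intracellular kinase domain.

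The library values are 2 raised to a variance-stabilized level from which the authors had removed the effect of the preparation date, rounded to whole numbers. They are not read counts, start at 12 in the table over all libraries and compress the differences of weakly expressed genes. The read depth of each library is unknown, and the authors' mean normalized counts add up to 4512220 in that table. The limma fit used log2(value + 1) with the replicate number as a block, and a gene was called at a Benjamini-Hochberg adjusted p under 0.05 over all 15601 genes. All fold changes, standard errors (SE) and adjusted p-values below are from it. AXL, the targeted gene, had values of 715 to 1271 in the 6 SNU449 libraries and 33 to 53 in the 6 SNU449-Axl- libraries. Its log2 fold change was -4.29 between control cells (SE 0.235, adjusted p = 2.16e-09) and -4.52 between Rego-resistant cells (SE 0.235, adjusted p = 1.27e-09). Of markers fixed for other cell types, all 5 mesenchymal markers were listed, with VIM at a mean normalized count of 18945. KRT8 and KRT18, but neither CDH1 nor EPCAM, were listed among 4 epithelial markers. Of 8 hepatocyte markers 2 were listed, APOA1 at 1.14 and AFP at 4.26, while ALB was not. Of 3 leukocyte markers, PTPRC and CD14 were listed with mean normalized counts of 1.12 and 5.34, and none of 3 endothelial markers was listed.

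The upstream sequences of FGF2, FGFR4 and FGF1, 3 members whose levels were called different between groups, are shown. That of FGFR1, which was also called, was not examined. The 3 sequences are from the RefSeq promoter table (GRCh38.p14) and end at the base before the outermost annotated start of the gene. They read 5′ to 3′ on the strand of the gene. Capitals mark the GC box GGGCGG or its reverse complement.
FGF2, chr4:122826581-122826681, plus strand: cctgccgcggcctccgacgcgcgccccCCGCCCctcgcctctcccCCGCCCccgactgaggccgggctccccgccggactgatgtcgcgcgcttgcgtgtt
FGFR4, chr5:177086665-177086904, plus strand: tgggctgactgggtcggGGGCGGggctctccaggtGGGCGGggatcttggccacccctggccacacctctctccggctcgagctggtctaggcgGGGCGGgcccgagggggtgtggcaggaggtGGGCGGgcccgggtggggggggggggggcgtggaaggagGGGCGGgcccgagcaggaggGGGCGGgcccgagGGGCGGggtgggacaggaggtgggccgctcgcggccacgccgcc
FGF1, chr5:142698071-142698320, minus strand: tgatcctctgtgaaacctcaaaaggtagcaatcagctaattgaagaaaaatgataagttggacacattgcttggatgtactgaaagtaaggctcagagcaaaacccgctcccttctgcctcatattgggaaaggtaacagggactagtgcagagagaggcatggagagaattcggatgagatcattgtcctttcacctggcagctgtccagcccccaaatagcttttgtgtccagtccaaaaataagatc

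G and C made up 80.2% of the FGF2 stretch and 80.0% of the FGFR4 stretch, but 44.8% of the FGF1 stretch. The median was 55.4% to 58.0% over 34943 RefSeq promoters cut to the same lengths. Each promoter was cut to its first bases from the upstream end, so that shorter cuts stop farther before the gene start. GGGCGG occurred 2 times in the FGF2 stretch of 101 bases and 7 times in the FGFR4 stretch of 240 bases, counting both strands. It did not occur in the 250 bases of FGF1. Of all promoters cut to these lengths, 17.4%, 41.3% and 42.5% held it at least once. The TATA box TATAAA, the AP-1 motif TGACTCA and the E-box CACGTG, searched on both strands, had no match in the 3 stretches and occurred in 1.34% to 10.8% of all promoters cut to these lengths. These are matches of letters and no measurement of factor binding.

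The genes lie apart in the genome. On GRCh38 with GENCODE release 40, FGFR1 (ENSG00000077782.22) is given on the minus strand of chromosome 8 from 38400215 to 38468834. FGFR3 (ENSG00000068078.20), FGFRL1 (ENSG00000127418.15), FGF5 (ENSG00000138675.17) and FGF2 (ENSG00000138685.17) lie on the plus strand of chromosome 4, from 1793293 to 1808872, from 1009936 to 1026898, from 80266639 to 80336680 and from 122826708 to 122898236. FGF1 (ENSG00000113578.18) lies on the minus strand of chromosome 5 from 142592178 to 142698070 and FGFR4 (ENSG00000160867.15) on its plus strand from 177086905 to 177098144. NUDT6 runs antisense to FGF2 over 9540 bases at the 3′ end of FGF2, and whether reads were counted by strand is not given in the sources used here. If strand was not used, reads of FGF2 and NUDT6 in that stretch cannot be told apart. The mean normalized count over the 12 libraries was 536.4 for FGF2 and 30.7 for NUDT6. LETM2 overlaps FGFR1 by 9313 bases and SPRY4-AS1 overlaps FGF1 by 79824 bases on the opposite strand, with mean normalized counts of 4.77 and 2.76. CFAP299 shares 951 bases and the strand with FGF5, at a mean normalized count of 2.59.

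**Figure D1:**
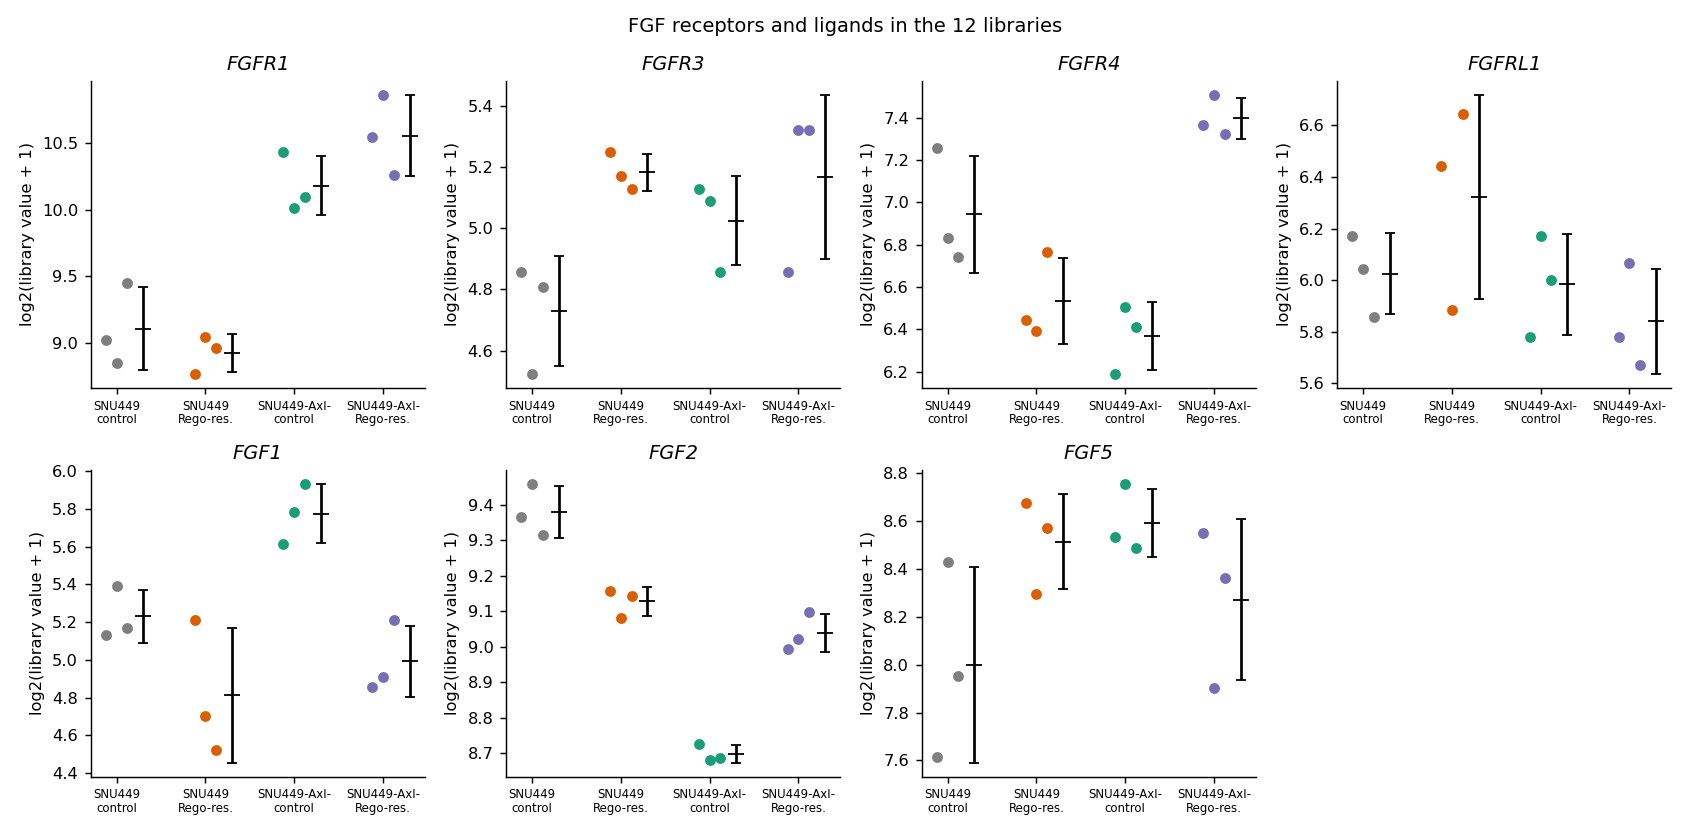
Library values of the 7 FGF receptors and ligands, as log2(value + 1) on axes that do not start at 0, in the 4 groups of cells. Coloured points are the 3 libraries of a group in the order of their replicate numbers, and the black bar gives mean ± SD. FGFR1 is higher in all 6 SNU449-Axl- libraries (1031 to 1863) than in all 6 SNU449 libraries (434 to 699), and FGF2 is lower in SNU449-Axl- control libraries (410 to 423) than in SNU449 control libraries (636 to 703).

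FGFR1, a receptor that binds both FGF1 and FGF2, was higher in SNU449-Axl- cells than in SNU449 cells in either state. Its values were 517, 460 and 699 in control and 434, 527 and 496 in Rego-resistant SNU449 cells, compared with 1385, 1031 and 1096 in control and 1499, 1863 and 1226 in Rego-resistant SNU449-Axl- cells. No library of one background overlapped with any library of the other, whereas control and Rego-resistant libraries overlapped within each background. Relative to SNU449, the log2 fold change was 1.08 (SE 0.214, adjusted p = 0.00424) in control cells and 1.64 (SE 0.214, adjusted p = 0.000157) in Rego-resistant cells. Both calls held in each of the 12 fits that left out 1 library, with log2 fold changes of 0.91 to 1.31 in control cells and 1.43 to 1.83 in Rego-resistant cells. With Rego resistance, FGFR1 differed by -0.18 in SNU449 (SE 0.214, adjusted p = 0.683) and by 0.38 in SNU449-Axl- cells (SE 0.214, adjusted p = 0.372), neither of which passed the test. The value in SNU449 changed sign, to 0.047, without SNU449 control replicate 3. The difference between these effects was 0.56 (SE 0.303, adjusted p = 0.333).

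FGFR4, the receptor that receives FGF19 in hepatocytes, was highest in Rego-resistant SNU449-Axl- cells. Its values were 152, 113 and 106 in control and 86, 83 and 108 in Rego-resistant SNU449 cells, compared with 72, 90 and 84 in control and 164, 181 and 159 in Rego-resistant SNU449-Axl- cells. The Rego-resistant SNU449-Axl- libraries lay above the 9 others, and those of Rego-resistant SNU449 and of SNU449-Axl- control cells overlapped. With Rego resistance, FGFR4 rose by 1.03 on the log2 scale in SNU449-Axl- cells (SE 0.202, adjusted p = 0.00612), while it differed by -0.41 in SNU449 cells (SE 0.202, adjusted p = 0.255). The difference between the Rego effects was 1.44 (SE 0.285, adjusted p = 0.00527) and stayed between 1.23 and 1.60 with an adjusted p of at most 0.0252 when each library was left out. The rise in SNU449-Axl- cells had an adjusted p of 0.0599 without Rego-resistant SNU449-Axl- replicate 2, and stayed called without any other library. Between Rego-resistant cells, FGFR4 was higher in SNU449-Axl- by 0.86 (SE 0.202, adjusted p = 0.0193). This call was lost without replicate 1 or 2 of Rego-resistant SNU449 cells (adjusted p = 0.0916 and 0.107) and without replicate 1, 2 or 3 of Rego-resistant SNU449-Axl- cells (adjusted p = 0.0829, 0.124 and 0.0563). Between control cells it was lower in all SNU449-Axl- libraries, with a log2 fold change of -0.57 (SE 0.202, adjusted p = 0.0937; 0.0306 without the replicate block).

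FGFR3 and FGFRL1 gave no call in any of the 4 comparisons fitted over all libraries. FGFR3, a receptor tyrosine kinase of the same family, had values of 28, 22 and 27 in control and 37, 35 and 34 in Rego-resistant SNU449 cells, compared with 34, 33 and 28 in control and 28, 39 and 39 in Rego-resistant SNU449-Axl- cells. The Rego-resistant SNU449 libraries lay above the SNU449 control libraries, with a log2 fold change of 0.45 (SE 0.189, adjusted p = 0.165). In the table of that pair of groups, limma called this difference only without the block (adjusted p = 0.0131). The other comparisons overlapped. With a mean normalized count of 5.80, FGFR3 was close to the floor of the scale. FGFRL1, the member without a kinase domain, ranged from 57 to 71 in control and from 58 to 99 in Rego-resistant cells of SNU449, and in SNU449-Axl- from 54 to 71 and from 50 to 66. Its libraries overlapped in all 4 comparisons, and the difference farthest from 0 was -0.48 between Rego-resistant cells (SE 0.221, adjusted p = 0.252).

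FGF2, the basic FGF that signals through several FGF receptors, was lowest in SNU449-Axl- control cells. Its values were 659, 703 and 636 in control and 570, 541 and 565 in Rego-resistant SNU449 cells, compared with 423, 410 and 411 in control and 509, 519 and 547 in Rego-resistant SNU449-Axl- cells. The control libraries of the backgrounds did not overlap, whereas those of the Rego-resistant cells did. Between control cells, FGF2 was lower in SNU449-Axl- by a log2 fold change of -0.68 (SE 0.167, adjusted p = 0.0165). The call was lost without SNU449 control replicate 1 or 2 (adjusted p = 0.0558 and 0.0821), without SNU449-Axl- control replicate 2 (adjusted p = 0.0796), in the table of that pair of groups (adjusted p = 0.0643) and with centring on the spike-in RNAs (adjusted p = 0.151). Between Rego-resistant cells, the log2 fold change was -0.09 (SE 0.167, adjusted p = 0.836), and 0.20 with that centring.

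With Rego resistance, every FGF2 library moved to one side of the control libraries in both backgrounds, down in SNU449 and up in SNU449-Axl- cells. Over all genes, 755 of 15601 (4.84%) had libraries that did not overlap in either background and moved in opposite directions. The log2 fold change was -0.25 in SNU449 (SE 0.167, adjusted p = 0.417) and 0.34 in SNU449-Axl- cells (SE 0.167, adjusted p = 0.288), neither of which passed the test. The difference between them was 0.59 (SE 0.236, adjusted p = 0.161; 0.0348 without the replicate block). The SD over the 3 libraries of a group was 0.025 to 0.073 for FGF2 on the log2 scale, and the fitted SE of 0.167 draws on the spread of genes of similar level as well. NUDT6, the antisense neighbour, had values of 69, 51 and 49 in control and 49, 47 and 58 in Rego-resistant cells of SNU449, and of 52, 47 and 54 and 60, 93 and 69 in those of SNU449-Axl-. Its log2 fold change with Rego resistance was -0.12 in SNU449 (adjusted p = 0.802) and 0.51 in SNU449-Axl- cells (adjusted p = 0.196), and its part in the FGF2 values was not tested.

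FGF1, the acidic FGF, which binds all 4 signaling receptors, was highest in SNU449-Axl- control cells and fell there with Rego resistance. Its values were 34, 41 and 35 in control and 36, 25 and 22 in Rego-resistant SNU449 cells, compared with 48, 54 and 60 in control and 28, 29 and 36 in Rego-resistant SNU449-Axl- cells. SNU449-Axl- control libraries lay above the 9 others. In SNU449-Axl- cells FGF1 fell by 0.78 on the log2 scale with Rego resistance (SE 0.206, adjusted p = 0.0364). The call was lost without replicate 2 or 3 of the SNU449-Axl- control cells (adjusted p = 0.147 and 0.137), without replicate 1 or 2 of the Rego-resistant SNU449-Axl- cells (adjusted p = 0.167 and 0.186) and with centring on the spike-in RNAs (adjusted p = 0.114). In SNU449 cells the difference was -0.42 (SE 0.206, adjusted p = 0.252), and the difference between the Rego effects was -0.36 (SE 0.291, adjusted p = 0.546). Between control cells it was higher in all SNU449-Axl- libraries, by 0.55 (SE 0.206, adjusted p = 0.122; 0.0406 with centring on the spike-in RNAs).

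FGF5, a secreted ligand known for ending the growth phase of hair, varied widely within groups. Its values were 195, 343 and 247 in control and 408, 313 and 379 in Rego-resistant SNU449 cells, compared with 369, 431 and 358 in control and 374, 238 and 328 in Rego-resistant SNU449-Axl- cells. Only the control cells of the backgrounds did not overlap, with a log2 fold change of 0.59 (SE 0.229, adjusted p = 0.132). With Rego resistance, it differed by 0.52 in SNU449 (SE 0.229, adjusted p = 0.198) and by -0.32 in SNU449-Axl- cells (SE 0.229, adjusted p = 0.495), and the difference between these was -0.84 (SE 0.324, adjusted p = 0.148). Without SNU449 control replicate 2, the difference between control cells was 0.88 (adjusted p = 0.0419) and that between the Rego effects -1.12 (adjusted p = 0.0489). Without SNU449 control replicate 1, these were 0.34 (adjusted p = 0.509) and -0.58 (adjusted p = 0.365), and the difference with Rego resistance in SNU449 was 0.26.

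**Figure D2:**
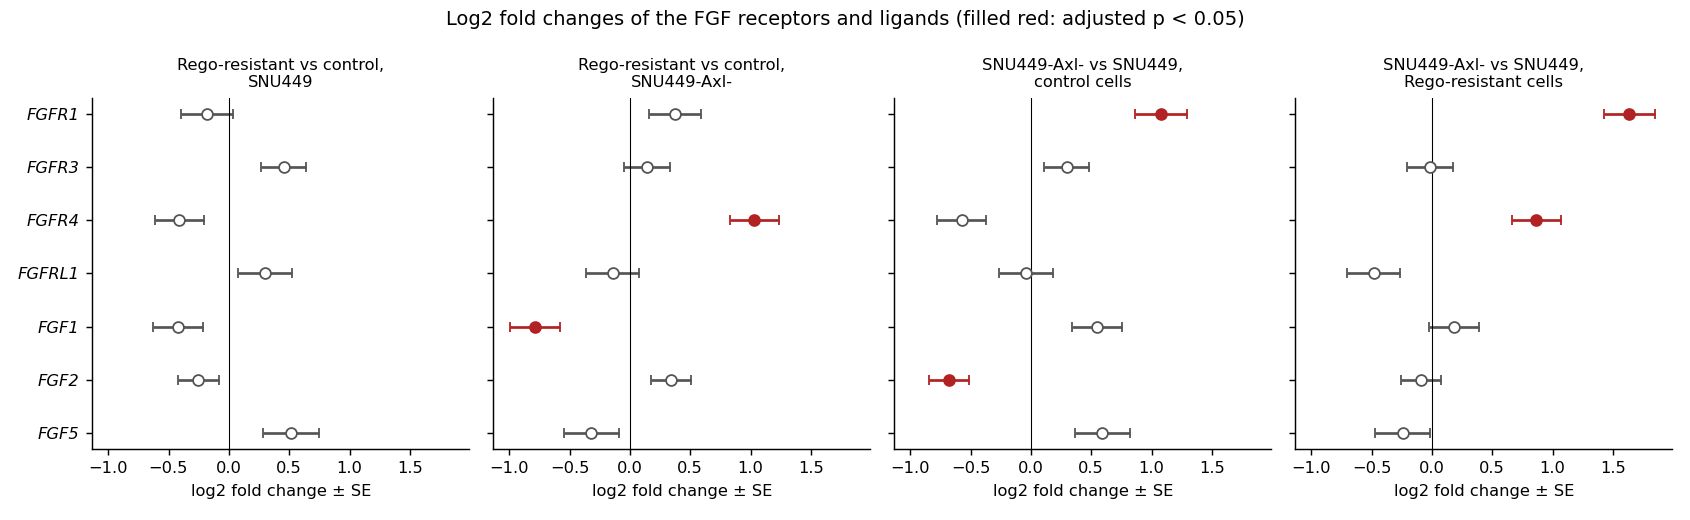
Log2 fold changes of the 7 genes in the 4 comparisons between groups, with bars of 1 SE from the limma fit with the replicate block. Filled red points have an adjusted p under 0.05, and they are FGFR1 in both comparisons of the backgrounds, FGFR4 and FGF1 with Rego resistance in SNU449-Axl- cells, FGF2 between control cells and FGFR4 between Rego-resistant cells. With centring on the spike-in RNAs the values of FGF2, FGF5 and FGFR3 between Rego-resistant cells and of FGFRL1 between control cells have the opposite sign.

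Set against the background of all genes, the calls among these 7 genes were as follows. With Rego resistance in SNU449, 0 of 7 were called by limma, whereas 7.81% of all genes were (4.31% up and 3.50% down). An unadjusted limma p under 0.05 was found there in 2 of 7, FGFR3 and FGF5, and in 3316 of all 15601 genes. In SNU449-Axl- cells, 2 of 7 were called, FGFR4 up and FGF1 down, and 4.35% of all genes (2.54% up and 1.81% down). Between control cells 2 of 7 were called, FGFR1 up and FGF2 down in SNU449-Axl-, and 7.45% of all genes (4.03% up and 3.43% down). Between Rego-resistant cells 2 of 7 were called, FGFR1 and FGFR4, both up, and 4.37% of all genes (2.44% up and 1.93% down). The difference of the Rego effects was called in 1 of 7, FGFR4, and in 5.87% of all genes (2.92% higher and 2.95% lower in SNU449-Axl-). The libraries did not overlap in 2 of 7 genes with Rego resistance in SNU449 (27.9% of all genes), in 3 of 7 in SNU449-Axl- cells (29.1%), in 5 of 7 between control cells (27.9%) and in 2 of 7 between Rego-resistant cells (28.0%). The median log2 fold change of the 7 genes was -0.18 with Rego resistance in SNU449, 0.14 in SNU449-Axl- cells, 0.30 between control cells and -0.02 between Rego-resistant cells, while that of all genes was -0.0001, 0.0066, 0.0035 and 0.0139. The comparisons share groups of libraries and are not independent of each other.

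The order of the 4 groups differed among the genes. FGFR1 rose from Rego-resistant SNU449 over SNU449 control and SNU449-Axl- control to Rego-resistant SNU449-Axl- cells, and only the middle neighbours differed by the test. For FGF2 the order was SNU449-Axl- control, Rego-resistant SNU449-Axl-, Rego-resistant SNU449 and SNU449 control, and no neighbours differed although the lowest and the highest group did. FGFR4 ran from SNU449-Axl- control over Rego-resistant SNU449 and SNU449 control to Rego-resistant SNU449-Axl- cells, again without a call between neighbours. FGF1 ran from Rego-resistant SNU449 over Rego-resistant SNU449-Axl- and SNU449 control to SNU449-Axl- control cells. No neighbours differed, while the ends of the order differed by 0.96 (SE 0.206, adjusted p = 0.0112). In FGF5, FGFR3 and FGFRL1 neither neighbours nor ends of the order differed by the test.

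**Figure D3:**
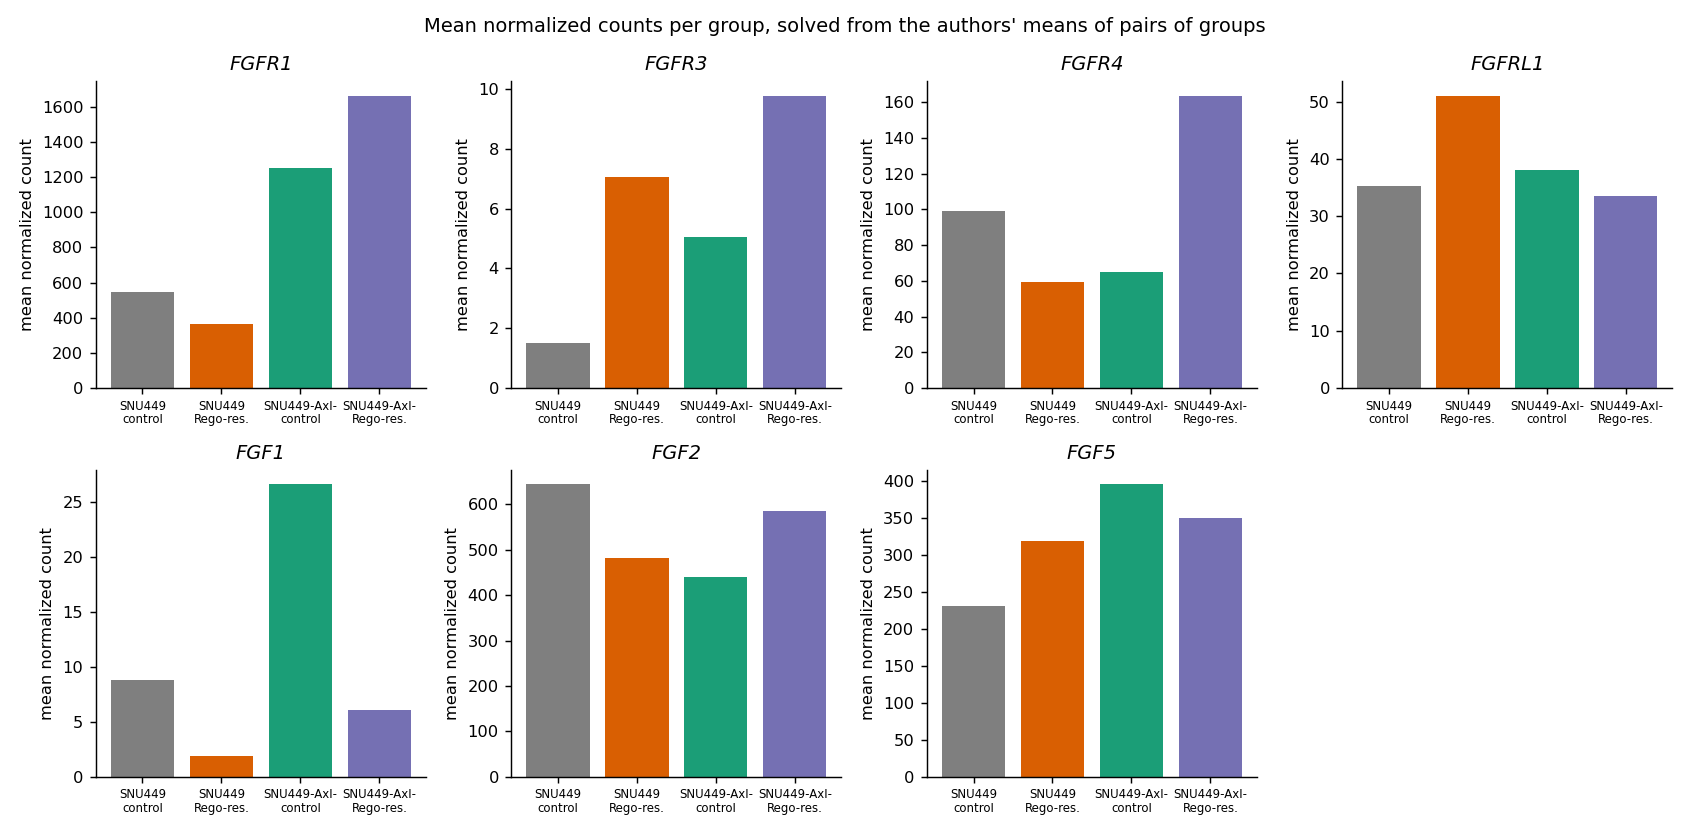
Mean normalized counts of the 7 genes in the 4 groups on linear axes from 0, solved by least squares from the authors' means over pairs of groups, without an error since no counts per library were used. FGF1 stands at 26.6 in SNU449-Axl- control cells and at 1.84 to 8.81 in the other groups, a wider range than on the compressed scale of the library values.

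Mean normalized counts per group give the same genes on a scale that is not compressed. They are averages of counts, and a removal of the preparation date is described for the library values only. The scales differ in both respects, and neither was tested as a source of their divergences. The authors' mean of each pairwise table is the average of 2 groups, so that the 4 group means can be solved from the 6 tables by non-negative least squares. Over 12878 genes in all of these tables, the largest misfit had a median of 0.704%. FGFR1 had 547.2 and 364.5 in control and Rego-resistant cells of SNU449, and 1252 and 1664 in those of SNU449-Axl-. SNU449-Axl- thus stood 2.29-fold above SNU449 in control and 4.57-fold in Rego-resistant cells, with a misfit of up to 4.98%. On the log2 scale the latter ratio was 2.19, against 1.64 from the library values. FGFR4 had 99.3, 59.1, 65.0 and 163.7 in the same order, a ratio of Rego-resistant to control cells of 0.595 in SNU449 and 2.52 in SNU449-Axl-. FGF2 had 644.3, 482.4, 439.5 and 585.6, a ratio of 0.749 in SNU449 and 1.33 in SNU449-Axl- cells.

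For FGF1 and FGFR3, the genes with the lowest counts, the scales diverged most. FGF1 had 8.81, 1.84, 26.6 and 6.03 in that order, with a misfit of up to 5.43%, and the ratio of Rego-resistant to control cells was 0.209 in SNU449 and 0.227 in SNU449-Axl- cells. FGFR3 had 1.51, 7.04, 5.05 and 9.78. FGF5 had 230.4, 319.1, 395.0 and 349.3, and FGFRL1 35.3, 51.1, 38.2 and 33.6. These means have no error and were not tested. In 4 values without a call, the ratio of SNU449-Axl- to SNU449 was above 1 while the log2 fold change of the library values was below 0. Between Rego-resistant cells, these were FGF2 (ratio 1.21, log2 fold change -0.09), FGF5 (1.09 and -0.24) and FGFR3 (1.39 and -0.02), and between control cells FGFRL1 (1.08 and -0.04).

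The other genes of the pathway were taken from 8 lists, whose counts and medians stand beside the shares and medians of all genes given above. List medians are given in the order of Rego resistance in SNU449, Rego resistance in SNU449-Axl- cells, and the backgrounds compared in control and in Rego-resistant cells. Of 19 further FGF ligands, FGF12 and FGF18 were listed, with median log2 fold changes of 0.62, 0.30, 0.41 and 0.10. FGF12, which stays inside the cell and binds sodium channels, rose with Rego resistance in SNU449-Axl- cells by 1.02 (SE 0.228, adjusted p = 0.015), from values of 47 to 54 to values of 89 to 128. It was higher in SNU449-Axl- than in SNU449 between Rego-resistant cells by 0.90 (SE 0.228, adjusted p = 0.0301). Each of these calls was lost in 5 of the 12 fits that left out 1 library, with adjusted p up to 0.115 and 0.191. FGF18, a ligand that acts on bone and cartilage, was lower in SNU449-Axl- between Rego-resistant cells by a log2 fold change of -0.70 (SE 0.169, adjusted p = 0.022), with 40 to 44 against 23 to 26. The call was lost in 6 of the 12 fits, with adjusted p up to 0.116, and with spike-in centring. With a mean normalized count of 5.84, FGF18 was close to the floor of the scale.

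Among the co-receptors and proteoglycans that present FGFs, calls occurred in all 4 comparisons. Of 15 listed genes, 3 rose and 2 fell with Rego resistance in SNU449, 4 rose in SNU449-Axl- cells, 2 were higher and 2 lower in SNU449-Axl- control cells, and 1 was higher and 1 lower in Rego-resistant SNU449-Axl- cells. The median log2 fold change of the list was 0.30, -0.03, -0.03 and -0.03 in that order. The shares of all genes called by limma were 7.81%, 4.35%, 7.45% and 4.37%. SDC2, the heparan sulfate proteoglycan syndecan-2, rose by 3.37 in SNU449 (SE 0.266, adjusted p = 2.04e-07), from 27 to 37 in control to 247 to 383 in Rego-resistant cells. In SNU449-Axl- cells it rose by 2.16 (SE 0.266, adjusted p = 0.000119), from 59 to 102 to 265 to 513. GPC4 and GPC3, members of the glypican family of anchored proteoglycans, rose in SNU449-Axl- cells by 1.87 (SE 0.244, adjusted p = 0.000175) and 1.68 (SE 0.247, adjusted p = 0.000532). GPC3, an antigen known from liver cancer, had 19 to 25 in control and 66 to 92 in Rego-resistant cells. All these calls held with each library left out.

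GPC1, the glypican-1 gene, fell by 1.22 on the log2 scale with Rego resistance in SNU449 (SE 0.259, adjusted p = 0.00594; 0.0575 without Rego-resistant SNU449 replicate 1). FLRT3, a membrane protein that binds FGF receptors, rose there by 1.19 (SE 0.285, adjusted p = 0.014), a call lost without SNU449 control replicate 2 and without Rego-resistant SNU449 replicate 2 (adjusted p = 0.127 and 0.119), and in the table of that pair of groups (adjusted p = 0.0726 with and 0.0541 without the block). Between control cells, SDC2 was higher in SNU449-Axl- by 1.34 (SE 0.266, adjusted p = 0.00418; 0.0534 without SNU449-Axl- control replicate 2). GPC1 and GPC4 were lower there by log2 fold changes of -1.16 (SE 0.259, adjusted p = 0.0093) and -1.07 (SE 0.244, adjusted p = 0.0102). Both calls were lost without SNU449 control replicate 1 (adjusted p = 0.0764 and 0.0919) and without SNU449-Axl- control replicate 3 (adjusted p = 0.0786 and 0.0605). KLB, the gene of β-Klotho, was higher there by 0.76 (SE 0.197, adjusted p = 0.0233). Its call was lost in 4 of the 12 fits that left out 1 library, with adjusted p up to 0.123. With a mean normalized count of 3.65, KLB was close to the floor of the scale. Between Rego-resistant cells, GPC3 was higher in SNU449-Axl- by 1.25 (SE 0.247, adjusted p = 0.00651; 0.0551 without Rego-resistant SNU449-Axl- replicate 3). SDC1, syndecan-1, was lower by a log2 fold change of -0.97 (SE 0.171, adjusted p = 0.00272), with 917 to 1055 in SNU449 and 489 to 522 in SNU449-Axl-, and kept its call with each library left out.

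**Figure D4:**
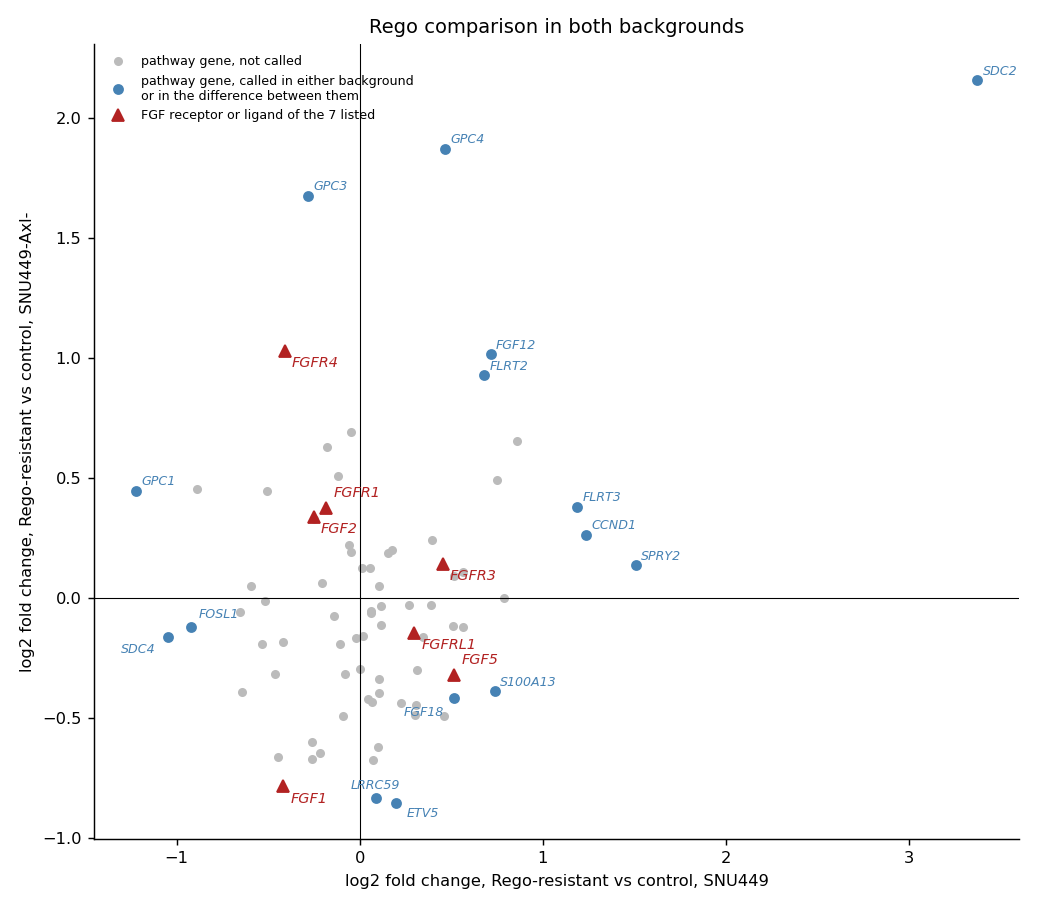
Log2 fold change with Rego resistance in SNU449 (horizontal axis) and in SNU449-Axl- cells (vertical axis), from library values, for the 7 FGF receptors and ligands (red triangles) and the genes of the 8 pathway lists (circles). Blue circles with names were called in either background or in the difference between them. SDC2 lies farthest out in both directions, at 3.37 and 2.16, and FGFR4 lies at -0.41 and 1.03.

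Downstream of the receptors, 12 of 12 transducers such as FRS2, GRB2 and PTPN11 were listed, and 0 were called by limma in each of the 4 comparisons and in the difference of the Rego effects. Their median log2 fold changes were 0.10 and 0.06 with Rego resistance in SNU449 and SNU449-Axl- cells, and 0.03 and -0.10 between the backgrounds in control and Rego-resistant cells. Of 12 enzymes of heparan sulfate, only EXT1, a polymerase of the chain, was called, lower in SNU449-Axl- between Rego-resistant cells by a log2 fold change of -0.77 (SE 0.176, adjusted p = 0.0171). That call was lost in 5 of the 12 fits that left out 1 library, with adjusted p up to 0.0889, and with spike-in centring. The median log2 fold changes of these enzymes were 0.01, -0.15, -0.08 and -0.14. All 3 listed regulators of receptor splicing, ESRP2, RBFOX2 and PTBP1, were without a call in these comparisons, with median log2 fold changes of 0.11, 0.11, 0.25 and -0.08.

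Of 10 listed feedback inhibitors, 1 rose with Rego resistance in SNU449 and 0 were called in SNU449-Axl- cells. Between backgrounds, 1 of them was higher in SNU449-Axl- in each comparison. Their median log2 fold changes were 0.17, -0.04, 0.41 and 0.04. Of all genes, 7.81%, 4.35%, 7.45% and 4.37% were called by limma in these comparisons. SPRY2, a Sprouty inhibitor of receptor tyrosine kinase signaling, rose in SNU449 by 1.51 (SE 0.218, adjusted p = 0.000239), from 72 to 93 to 194 to 258, and kept its call with each library left out. It was higher in SNU449-Axl- control than in SNU449 control cells by 0.79 (SE 0.218, adjusted p = 0.0325), a call lost in 4 of the 12 fits that left out 1 library, with adjusted p up to 0.183, and in the table of that pair of groups (adjusted p = 0.0794). DUSP5, a phosphatase of ERK in the nucleus, was higher in SNU449-Axl- between Rego-resistant cells by 1.19 (SE 0.305, adjusted p = 0.0313), which was lost in 5 of these fits, with adjusted p up to 0.255.

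Of 9 transcriptional targets of the pathway, 1 rose and 1 fell with Rego resistance in SNU449, 1 fell in SNU449-Axl- cells, 2 were higher and 1 lower in SNU449-Axl- control cells and 0 were called between Rego-resistant cells. The medians on the log2 scale were -0.05, -0.12, -0.24 and 0.05, and 7.81%, 4.35%, 7.45% and 4.37% of all genes were called. ETV5, an ETS factor induced by FGF signaling, was higher in SNU449-Axl- control cells by 0.9999 (SE 0.206, adjusted p = 0.0053), with 123 to 146 against 53 to 73. This was lost without SNU449-Axl- control replicate 2 (adjusted p = 0.0517). With Rego resistance in SNU449-Axl- cells ETV5 fell by 0.85 (SE 0.206, adjusted p = 0.0236), to values of 61 to 79, a call lost in 5 of the 12 fits with adjusted p up to 0.191, and with spike-in centring (adjusted p = 0.0953). CCND1, which encodes cyclin D1, rose with Rego resistance in SNU449 by 1.24 (SE 0.357, adjusted p = 0.0391), whereas FOSL1, an AP-1 subunit, fell by 0.92 (SE 0.206, adjusted p = 0.00858). The former was lost in 7 and the latter in 2 of the 12 fits that left out 1 library, with adjusted p up to 0.211 and 0.0607, and the call of FOSL1 was also lost in the table of that pair of groups (adjusted p = 0.0513). Between control cells, CCND1 was higher by 1.30 (SE 0.357, adjusted p = 0.0328) and FOSL1 lower by a log2 fold change of -0.73 (SE 0.206, adjusted p = 0.0378) in SNU449-Axl-, and each call was lost in 5 of these fits, with adjusted p up to 0.164 and 0.172. That of FOSL1 was also lost in the table of that pair of groups (adjusted p = 0.117) and with spike-in centring (adjusted p = 0.166).

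Among 10 partners of FGF1 and FGF2 in release or inside the cell, LRRC59, which takes part in the nuclear import of FGF1, was the gene called in these comparisons. It was higher in SNU449-Axl- control than in SNU449 control cells by 0.72 (SE 0.215, adjusted p = 0.0482) and with Rego resistance in SNU449-Axl- cells it fell by 0.83 (SE 0.215, adjusted p = 0.0344). These calls were lost in 8 and 5 of the 12 fits that left out 1 library, with adjusted p up to 0.253 and 0.218. The former was also lost in the table of that pair of groups (adjusted p = 0.0509) and with upper-quartile rescaling (adjusted p = 0.0505), and the latter with spike-in centring (adjusted p = 0.113). TEC, SYT1 and ANXA2 of the same list were not called, and the list medians were -0.13, -0.07, -0.09 and -0.13 on the log2 scale.

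The genes most alike in pattern were taken from those with an authors' mean normalized count of at least 50, by Pearson's r over the 12 libraries after the replicate number had been taken out. For FGFR1 they were IL18 (r = 0.964), RDH10 (r = 0.963) and KRT8 (r = 0.948). KRT8, which encodes keratin 8, is also one of the epithelial markers above, and its part in the FGFR1 levels was not tested. RBPMS (r = 0.95), PDGFC (r = 0.944) and DENND4C (r = 0.936) were closest to FGFR4, and MRPL47 (r = 0.972), GTF3C2 (r = 0.956) and ILF2 (r = 0.949) to FGF1. For FGF2 they were ENOPH1 (r = 0.942), PGAP4 (r = 0.941) and FBXW7 (r = 0.938), and for FGF5 they were UBE2G2 (r = 0.911), CRK (r = 0.907) and RNF182 (r = 0.889). Each search covered 8188 or 8189 genes over libraries that fall into 4 groups, so that these values describe likeness and nothing more.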

How the data were processed

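SNU449 and SNU449-Axl- cells, control or Rego-resistant, were sequenced in 12 QuantSeq 3′ libraries. The authors trimmed reads with cutadapt 4.0, aligned them with STAR 2.5.3a to GRCh38 with GENCODE release 40 and spike-ins, and used DESeq2 with the preparation date. The deposited library values are scores, 2 raised to the variance-stabilized, batch-corrected level, rounded. The mean normalized count is a signal that the authors averaged over libraries. The tables also hold group averages and the authors' fold changes and p-values, which were not used.

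The members and gene lists were chosen with earlier results of these data known. In R 4.3.3, limma 3.58.1 was fitted to log2(value + 1) with a mean-variance trend in eBayes, with group means and the replicate number as a block, 6 residual degrees of freedom and 15601 genes, with 32 spike-ins left out. It was tested on simulated data. The replicate number stands in for the preparation date in the authors' design, since the labels give no dates, and which libraries were prepared together is not known here. The mean effect of a replicate number had a median of 0.00126 against 0.122 for a library. The deposited values thus hold next to no effect along that number. Residuals of same-numbered libraries correlated at -0.48 to -0.09, and removing an effect along that number leaves negative correlations. The text names all members, AXL, up to 3 called genes per list and comparison, and KLB as the co-receptor of FGFR4. It also names the 3 most similar genes of FGF2 and of members whose group means span at least 0.5. Alternatives were other tables, scalings, filters, pseudocount, no block and each library left out.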

Additional observations from a re-analysis of the deposited data

Results flagged for a closer look

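The difference of the Rego effects, SNU449-Axl- minus SNU449, was called by the interaction term of limma with Benjamini-Hochberg adjustment in FGFR4 and in 7 genes of the pathway lists. Of all genes, 5.87% were called. The list calls were 3 of 15 co-receptors and proteoglycans, and 1 each of 2 further ligands, 10 feedback inhibitors, 9 transcriptional targets and 10 partners of FGF1 and FGF2. The 12 transducers, 12 heparan sulfate enzymes and 3 splicing regulators had 0. For FGFR4 the difference was 1.44 (adjusted p = 0.00527). It was higher in SNU449-Axl- cells for the glypicans GPC3, GPC1 and GPC4, by 1.96 (adjusted p = 0.00246), 1.67 (adjusted p = 0.0105) and 1.41 (adjusted p = 0.0197). It was lower for SPRY2 (-1.37, adjusted p = 0.0117), ETV5 (-1.05, adjusted p = 0.0385), FGF18 (-0.93, adjusted p = 0.0257) and S100A13 (-1.13, adjusted p = 0.042), the last a partner of FGF1 in its release. With each of the 12 libraries left out in turn, FGFR4, GPC3, GPC1 and SPRY2 kept the call, while it was lost in 5 of the 12 fits for GPC4, 9 for ETV5, 8 for FGF18 and 10 for S100A13, with adjusted p up to 0.0727, 0.138, 0.0813 and 0.139. Centring on the spike-in RNAs also ended the call of ETV5, FGF18 and S100A13. FGF18, at a mean normalized count of 5.84, was close to the floor of the scale, and GPC3 was low on it at 17.0.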

How the results depend on the processing

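Over all genes, the 1219, 678, 1163 and 682 calls of the 4 comparisons (Rego resistance in SNU449, in SNU449-Axl-, then the backgrounds in control and in Rego-resistant cells) and the 916 calls of the difference of Rego effects became 2175, 1552, 2182, 1503 and 1826 without the replicate block. The tables of a pair of groups gave 603, 818, 603 and 1160 with the block and, a fit chosen after seeing the data, 2947, 3566, 3750 and 4024 without it. With a library left out, they ranged from 740 to 1299, 205 to 891, 540 to 1275, 219 to 826 and 523 to 922. Centring on the spike-in RNAs moved the median of all genes by 0.05, 0.14, 0.20, 0.29 and 0.09. The split of calls into higher and lower went from 396 and 282 to 585 and 110 with Rego resistance in SNU449-Axl-, from 628 and 535 to 1257 and 231 between control cells, from 381 and 301 to 1731 and 68 between Rego-resistant cells and from 455 and 461 to 460 and 265 for the difference.

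Among the 7 genes, the block changed no call except those given beside the results, and without it 2 in place of 1 were called for the difference of Rego effects. The pairwise table gave 1 call between control cells with the block, and 5 there without it. Without the block it gave 1 with Rego resistance in SNU449 (FGFR3, adjusted p = 0.0131) and 3 in SNU449-Axl- (FGF2 gained, adjusted p = 0.0185). Between Rego-resistant cells it gave 3 without the block (FGF5 gained, adjusted p = 0.0344). Spike-in centring left 1 call with Rego resistance in SNU449-Axl-, and gave FGFRL1 0.16 between control cells and FGFR3 0.28, FGF2 0.20 and FGF5 0.0502 between Rego-resistant cells, each of the opposite sign. With a library left out, the calls ranged from 0 to 2 with Rego resistance in SNU449-Axl-, from 1 to 2 between control cells, from 1 to 2 between Rego-resistant cells and from 1 to 2 for the difference. Log2 fold changes that passed through 0 were those of FGFR1 with Rego resistance in SNU449 (-0.35 to 0.047), FGFRL1 between control cells (-0.17 to 0.10), and FGFR3 (-0.12 to 0.19), FGF1 (-0.0156 to 0.45) and FGF5 (-0.43 to 0.00496) between Rego-resistant cells. FGFR3 is absent with the minimum mean normalized count of 10. Of 681 log2 fold changes of single genes under an alternative, 643 kept direction and side of the threshold, most of them uncalled to begin with. Of the others, 16 lost a call, 11 gained a call and 11 changed direction. The cause of these changes was not tested. Read depth per library, which limits weakly expressed genes such as FGFR3 and FGF1, is unknown.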
